A study of Mus musculus with 9 samples.

Results

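The angiopoietin-Tie and apelin systems were followed in RNA-Seq of mouse osteoblasts and endothelial cells (ECs) through 8 genes chosen by name: the angiopoietin ligands Angpt1, Angpt2, and Angpt4, the Tie receptors Tek and Tie1, the phosphatase Ptprb, the peptide apelin (Apln), and its receptor (Aplnr). All 8 were found in the deposited table of 50686 genes, and 7 of them held enough reads to be tested. The table covered 9 libraries in 3 groups of 3, namely MC3T3-E1 osteoblasts without SB216763, MC3T3-E1 osteoblasts given 10 μM SB216763 for 14 days, and untreated mouse pulmonary ECs. MC3T3-E1 is a single established mouse osteoblast line, and SB216763 inhibits the kinase GSK3. The ECs were isolated by FACS, and the age and strain of the mice and the time in culture of the control osteoblasts are not given in the sources used here. No label says whether the libraries of a group came from separate cultures or animals, so the p-values measure only the spread between these libraries, which may be technical. The comparison of treated with control osteoblasts asks how far GSK3 inhibition moved an osteoblast toward an endothelial profile, and the ECs give the endothelial level.

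Angiopoietins are secreted proteins that bind Tek, also called Tie2, a receptor tyrosine kinase of the endothelium. Angpt1, which pericytes and other mesenchymal cells make, activates Tek and stabilizes vessels, while Angpt2, which ECs store and release, often acts against it. Tie1 is a related receptor that modifies Tek signaling, and Ptprb, also called VE-PTP, is a receptor phosphatase that dephosphorylates Tek and VE-cadherin. Apelin is a peptide that angiogenic ECs secrete, and Aplnr is a G protein–coupled receptor of endothelial and other cells.

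The library totals ran from 30990107 to 68946333 counts. Levels are given as CPM, the share of each library’s counts scaled to a common total after TMM normalization, and 3 counts in a library corresponded to between 0.0435 and 0.0968 CPM before that normalization, a limit that covers counting error only. The labels were set against marker genes. The 10 endothelial markers summed to 6932 to 7115 CPM in the EC libraries but to 4.31 to 4.99 CPM in control and 5.08 to 5.67 CPM in treated osteoblasts. The 8 osteoblast markers, which were all lower after treatment, summed to 44289 to 59713 CPM in control osteoblasts, 8096 to 8367 CPM in treated ones, and 45.5 to 64.9 CPM in the EC libraries. Of 7 blood cell markers, 5 were under 1 CPM in ECs, and Cd68 was the highest at 46.6 CPM, while 6 lung epithelial markers together stayed at or under 0.185 CPM. The 5 lung fibroblast markers summed to 23.5 to 25.9 CPM in the EC libraries, with Pdgfra the highest at 18.2 CPM. The 5 lymphatic endothelial markers summed to 248 to 264 CPM there, with Flt4 the highest at 170 CPM and 3 of them under 1 CPM.

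**Figure D1:**
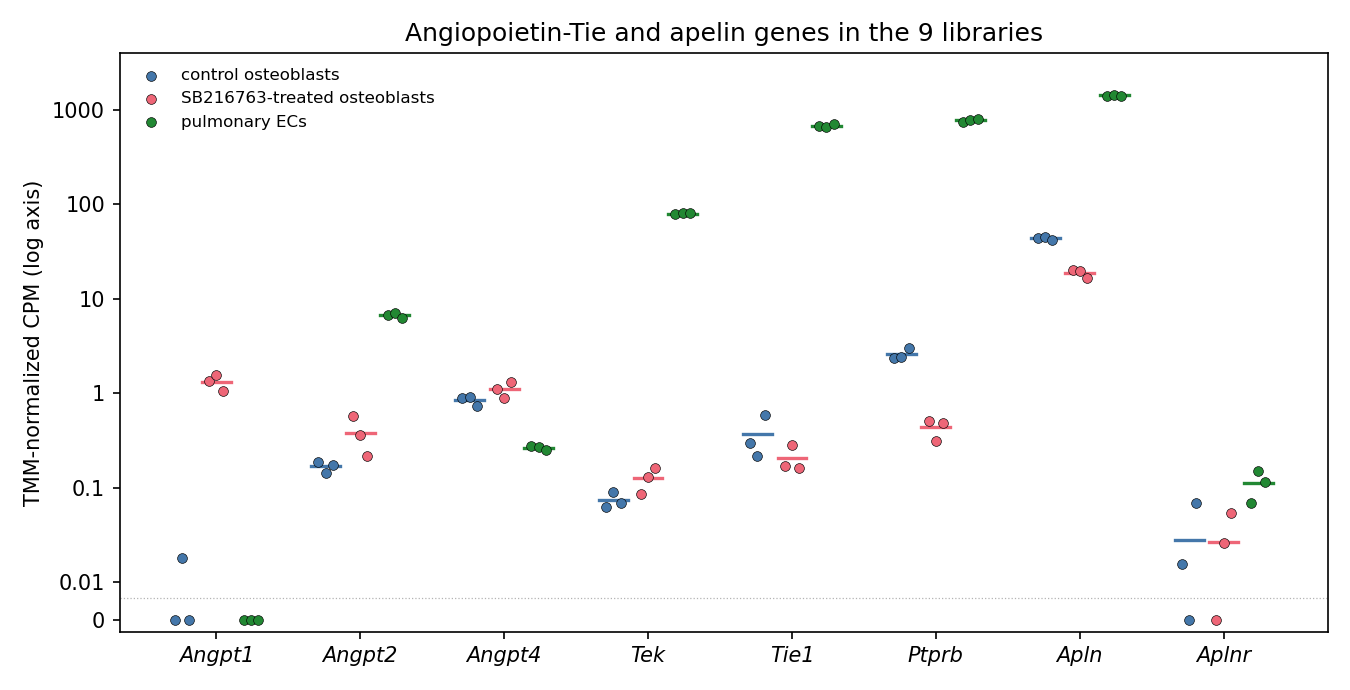
TMM-normalized CPM on a log axis for the 8 genes, with 1 point per library, a short line at the mean of each group where it was at least 0.01 CPM, and libraries without a read placed at 0 below the dotted line. Angpt1 had reads in all 3 treated libraries and in no EC library, while Tek, Tie1, Ptprb, Apln, and Angpt2 were highest in ECs.

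Angpt1 (ENSMUSG00000022309, chromosome 15, 42424723 to 42676977, minus strand, in GENCODE M21 on GRCm38) was the one member of the group with reads almost entirely in the treated osteoblasts. The control libraries held 0, 1, and 0 counts, the treated libraries 47, 60, and 39 counts, and the EC libraries 0, 0, and 0 counts. The treated mean was 1.32 ± 0.252 CPM (mean ± SD, n = 3, as for all group values here), and the 3 treated libraries lay above every other library. The 146 treated counts against 1 control count gave a ratio of 195, with an exact 95% counting interval from 34.5 to 7771. The difference had an adjusted p = 2.30e-08 in edgeR's quasi-likelihood test, which was fitted to all 15531 genes tested and adjusted by the Benjamini-Hochberg method. Against ECs, where no read was seen, the treated level was at least 53.0-fold higher when the EC group was set at 3 counts (edgeR, adjusted p = 2.05e-08). An antisense gene, Gm17473, shares 737 exon bases with Angpt1 and had 0 counts in all libraries, and the strand setting of the counting is not given in the sources used here.

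The appearance of Angpt1 was set beside markers of mural cells, the vessel-wrapping cells that are known to make it. Pdgfrb, the PDGF receptor of mesenchymal and mural cells, rose from 272, 231, and 258 CPM in the control libraries to 739, 743, and 754 CPM in the treated ones. Rgs5, a pericyte marker, was at 0.0604 ± 0.0431 CPM in the controls and 0.117 ± 0.0952 CPM after treatment. Acta2, smooth muscle actin, fell from 2914 ± 95.8 to 144 ± 9.11 CPM, and Cspg4, which encodes NG2, fell from 33.2 ± 9.26 to 3.14 ± 0.462 CPM. Summed over the 8 mural markers, the level went from between 3148 and 3294 CPM to between 911 and 922 CPM. Kcnj8 had no read in the MC3T3 libraries, and of the 5 mural markers that could be tested 2 were higher and 3 were lower after treatment. In bulk RNA, a change in the number of cells with a transcript and a change in transcript per cell cannot be told apart. The part of mural-type cells in the Angpt1 reads was not tested.

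Angpt2 (ENSMUSG00000031465, chromosome 8, 18690263 to 18741562, minus strand), the context-dependent ligand of Tek, was an EC transcript with a trace in osteoblasts. Its levels were 6.84, 7.03, and 6.27 CPM in the EC libraries, 0.189, 0.146, and 0.174 CPM in control libraries, and 0.573, 0.365, and 0.218 CPM in treated ones. The 3 groups did not overlap, although the lowest treated library lay close to the highest control. ECs were above the controls by a log2 fold change of 5.28 (standard error [SE] 0.21, edgeR adjusted p = 1.00e-12). Treated osteoblasts were above the controls by a log2 fold change of 1.16 (SE 0.36, edgeR adjusted p = 0.00897), from 12, 8, and 5 counts in the control and 20, 14, and 8 counts in the treated libraries. This call was lost in limma-voom (adjusted p = 0.0261) and in 8 of the 9 fits that left out 1 library. Without SB216763 replicate 1 the log2 fold change was 0.77 (edgeR adjusted p = 0.0938). When the osteoblast libraries were fitted without the ECs, Angpt2 had too few reads to be tested. Angpt2 lies on the opposite strand inside Mcph1, a gene of the DNA damage response, with no shared exon base. Mcph1 went the other way after treatment, from 20.2 ± 0.945 to 12.0 ± 0.995 CPM. In ECs it was at 31.9 ± 0.261 CPM, above both osteoblast groups, as Angpt2 was. The part of Mcph1 reads in the Angpt2 counts was not tested.

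Angpt4 (ENSMUSG00000027460, chromosome 2, 151911210 to 151945337, plus strand), a further Tek ligand, was near 1 CPM in osteoblasts. The control libraries held it at 0.898, 0.910, and 0.729 CPM, the treated libraries at 1.12, 0.886, and 1.31 CPM, and the EC libraries at 0.275, 0.274, and 0.255 CPM. The treated and control libraries overlapped, and the EC libraries lay below both. The log2 fold change with treatment was 0.35 (SE 0.20), and this difference did not pass (edgeR adjusted p = 0.126). ECs were lower than the controls by a log2 fold change of -1.68 and lower than the treated cells by -2.03 (adjusted p = 1.73e-05 and 1.84e-06 from edgeR).

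Ranked per kilobase of exon, so that long and short genes can be compared, Angpt4 was the highest of the 3 ligands in the controls, at 0.362 ± 0.0433 CPM per kilobase. After treatment the order of levels was Angpt4 at 0.473 ± 0.0902, Angpt1 at 0.254 ± 0.0484, and Angpt2 at 0.104 ± 0.0484 CPM per kilobase, and the libraries of neighbors in this order did not overlap. In ECs, Angpt2 led at 1.82 ± 0.107 CPM per kilobase, Angpt4 followed at 0.115 ± 0.00486, and Angpt1 had no read.

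The Tie receptors were at high levels in ECs and near the detection limit in osteoblasts. Tie1 (ENSMUSG00000033191, chromosome 4, 118471191 to 118490061, minus strand) was at 675, 657, and 702 CPM in the EC libraries. It was at 0.299, 0.218, and 0.590 CPM in the controls and 0.172, 0.287, and 0.163 CPM after treatment, so that the 2 osteoblast groups overlapped. The difference between ECs and controls was a log2 fold change of 11.00 (SE 0.12, edgeR adjusted p = 1.10e-19). Tek (ENSMUSG00000006386, chromosome 4, 94739289 to 94874976, plus strand) was at 79.3, 80.7, and 80.4 CPM in ECs. It had 4, 5, and 2 counts in the controls and 3, 5, and 6 counts after treatment. The 9591 EC counts against 11 control counts gave a ratio of 1072, with an exact 95% counting interval from 599 to 2149. A treatment difference was not detectable at this depth for either receptor, with log2 fold changes of -0.64 for Tie1 (SE 0.36, edgeR adjusted p = 0.119) and 0.75 for Tek (SE 0.40, edgeR adjusted p = 0.223). In ECs, Tie1 exceeded Tek by 8.11 ± 0.283 times per kilobase of exon.

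The RefSeq promoter table holds 4 of the 8 genes, Angpt4, Tek, Tie1, and Apln. The sequences of Tek, Tie1, and Apln are shown because these 3 genes carry the contrast between ECs and osteoblasts and have an entry. Each is the 250 bases before the RefSeq start site, read in the direction of transcription on build GRCm38.p6. Most of the Tie1 window lies inside the GENCODE Tie1 gene, which extends to 118490061. The Tek and Apln windows lie outside their GENCODE genes. Capitals mark GGAA, the core that ETS factors bind, or its complement TTCC.
Tek, chr4:94739039-94739288, plus strand: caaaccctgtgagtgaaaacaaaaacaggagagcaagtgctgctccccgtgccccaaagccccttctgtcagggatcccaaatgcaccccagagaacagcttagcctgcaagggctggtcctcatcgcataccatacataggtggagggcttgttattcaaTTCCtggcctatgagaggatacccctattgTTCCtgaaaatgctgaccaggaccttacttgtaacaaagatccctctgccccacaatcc
Tie1, chr4:118489850-118490099, minus strand: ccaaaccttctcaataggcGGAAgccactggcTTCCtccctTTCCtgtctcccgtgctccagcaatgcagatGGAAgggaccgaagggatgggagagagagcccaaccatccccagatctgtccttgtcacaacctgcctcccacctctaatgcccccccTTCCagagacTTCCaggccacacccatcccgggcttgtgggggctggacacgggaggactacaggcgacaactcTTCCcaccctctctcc
Apln, chrX:48034854-48035103, minus strand: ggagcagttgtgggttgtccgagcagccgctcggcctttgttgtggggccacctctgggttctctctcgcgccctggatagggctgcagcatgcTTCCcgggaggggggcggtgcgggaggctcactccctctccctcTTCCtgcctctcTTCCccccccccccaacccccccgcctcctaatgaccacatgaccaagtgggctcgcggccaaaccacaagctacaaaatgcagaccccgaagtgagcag
GGAA was found 7 times in the Tie1 window, 3 times in that of Apln, and 2 times in that of Tek, on either strand. At least 1 match is present in 93.4% of the 32851 promoters of the table, and 7 or more in 3.82%. TATAAA, the TATA box, and CTTTGAT, a form of the TCF/LEF site that β-catenin complexes use, were in none of the 3 windows. They are in 12.4% and 3.21% of all promoters. Both were found once in the window of Angpt4. TGGGAA, the RBPJ core, which overlaps GGAA, occurred once, in the Tie1 window, and is in 21.6% of all promoters. ACGTG, a form of the core of hypoxia response elements, was in none of the 4 windows and is in 16.6% of all promoters. Each motif was searched only in the spelling given and its complement, so other forms of these sites were not counted. A match is a description of letters and not a bound site.

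Ptprb (ENSMUSG00000020154, chromosome 10, 116275523 to 116389535, plus strand), the phosphatase that restrains Tek, was low in the control osteoblasts and lower after SB216763. It was at 2.38, 2.42, and 3.06 CPM in the controls and 0.516, 0.313, and 0.490 CPM after treatment, from 151, 133, and 88 counts and 18, 12, and 18 counts. The highest treated library was below the lowest control. The log2 fold change was -2.54 (SE 0.17, edgeR adjusted p = 1.32e-09). In ECs it was at 742, 788, and 799.7 CPM, above the treated cells by a log2 fold change of 10.79 (SE 0.11, edgeR adjusted p = 4.93e-20). In the controls Ptprb was the third of the 8 genes per kilobase, at 0.196 ± 0.0285 CPM per kilobase. After treatment it stood at 0.0330 ± 0.00829 CPM per kilobase, where its libraries overlapped those of both Tie1 and Tek. In ECs the Ptprb level was 3.42 ± 0.105 times that of Tek per kilobase and 0.423 ± 0.0186 times that of Tie1.

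The traces of endothelial transcripts in osteoblasts were set on a common scale, as the osteoblast mean in percent of the EC mean. The 10 endothelial markers lay between 0.0326% and 0.454% in the controls, with a median of 0.0634%, and between 0.0334% and 0.944% after treatment, with a median of 0.0442%. Cdh5, which encodes VE-cadherin, was the lowest and Vwf the highest in both groups. Tie1 was at 0.0544% in the controls and 0.0306% after treatment, and Tek at 0.0929% and 0.158%. Ptprb went from 0.337% to 0.0566%. Ptprb and Tek lay within the range of the 10 markers in both groups, and Tie1 lay within it in the controls and just below it after treatment. Of the 10 markers, 8 did not pass the test between treated and control osteoblasts. Vwf, the von Willebrand factor gene, was 2.10-fold higher after treatment (edgeR adjusted p = 1.11e-06), and Sox18, a SOX factor of endothelium, was 2.41-fold lower (edgeR adjusted p = 0.00573). The Sox18 difference rested on few reads, with 27, 24, and 11 counts in the control and 4, 13, and 2 counts in the treated libraries. Apln, at 3.09% and 1.32%, and Angpt2, at 2.52% and 5.74%, were above the range of the 10 markers in both groups. Whether stray EC reads in the osteoblast libraries have a part in the traces was not tested.

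**Figure D2:**
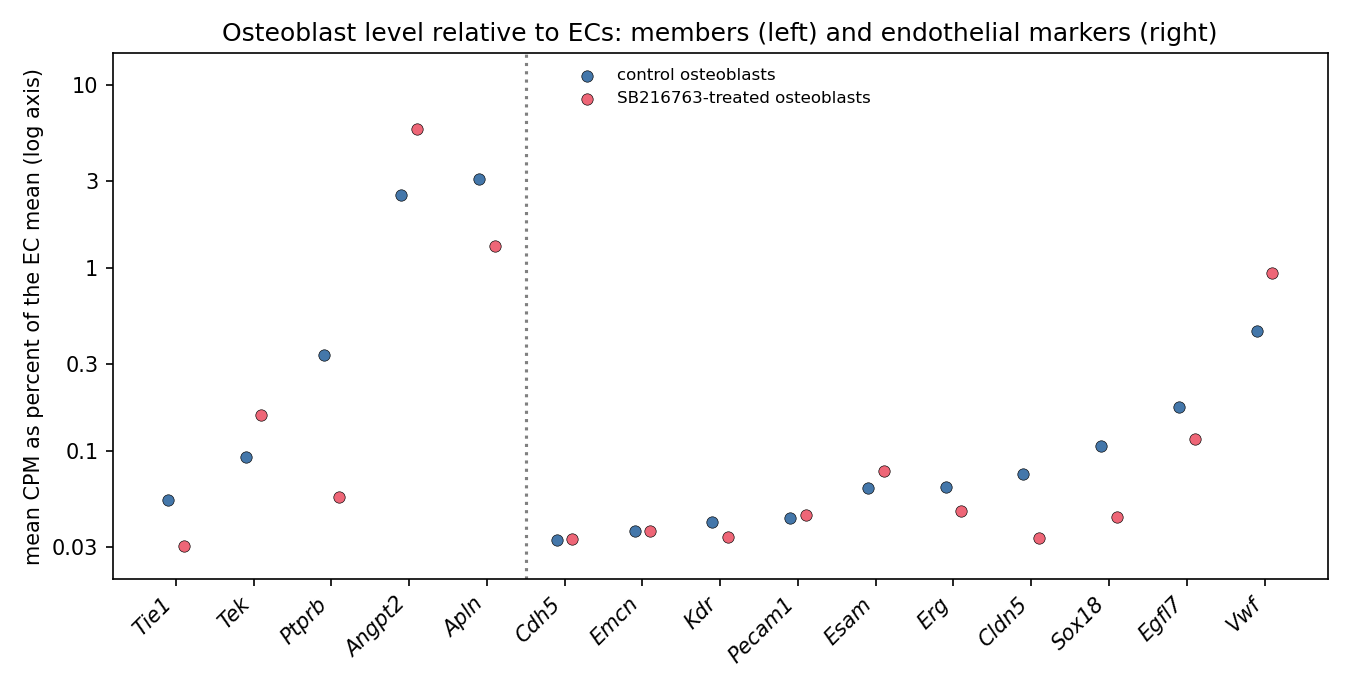
Mean CPM in control and SB216763-treated osteoblasts as a percent of the mean in pulmonary ECs, on a log axis, for 5 members of the group left of the dotted line and 10 endothelial markers right of it. Ptprb went from 0.337% to 0.0566%, within the range of the 10 markers in both groups, while Apln and Angpt2 stayed above 1%.

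Apln (ENSMUSG00000037010, chromosome X, 48025146 to 48034853, minus strand) was the highest of the 8 genes per kilobase in every group, and it fell with SB216763. The control libraries held 43.9, 45.6, and 42.2 CPM of it, the treated libraries 20.0, 19.5, and 16.6 CPM, and the EC libraries 1419, 1438, and 1410 CPM. All 3 groups stood apart, with the treated osteoblasts farther from the ECs than the controls were. The log2 fold change with treatment was -1.23 (SE 0.07, edgeR adjusted p = 7.71e-11), which passed the test but not the fold threshold of the study, a log2 change of 2 or more in size. ECs were above the controls by a log2 fold change of 5.02 (SE 0.07, edgeR adjusted p = 1.24e-18). Per kilobase of exon, the EC level of Apln was 3.28 ± 0.138 times that of Tie1.

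Aplnr (ENSMUSG00000044338, chromosome 2, 85136225 to 85139923, plus strand), the receptor for apelin, was hardly seen in any group and did not pass the filter on low counts. It had 1, 0, and 2 counts in the controls, 0, 1, and 2 counts after treatment, and 3, 5, and 5 counts in ECs. The EC mean was 0.112 ± 0.0419 CPM, against 1422 ± 14.0 CPM for Apln in the same libraries. The 13 EC counts against 3 control counts gave a ratio of 5.33, with an exact 95% counting interval from 1.46 to 29.2. When no filter was applied, this difference had an adjusted p = 0.0416 in edgeR. Apela, which encodes the other ligand of Aplnr, had 0 counts in all 9 libraries.

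**Figure D3:**
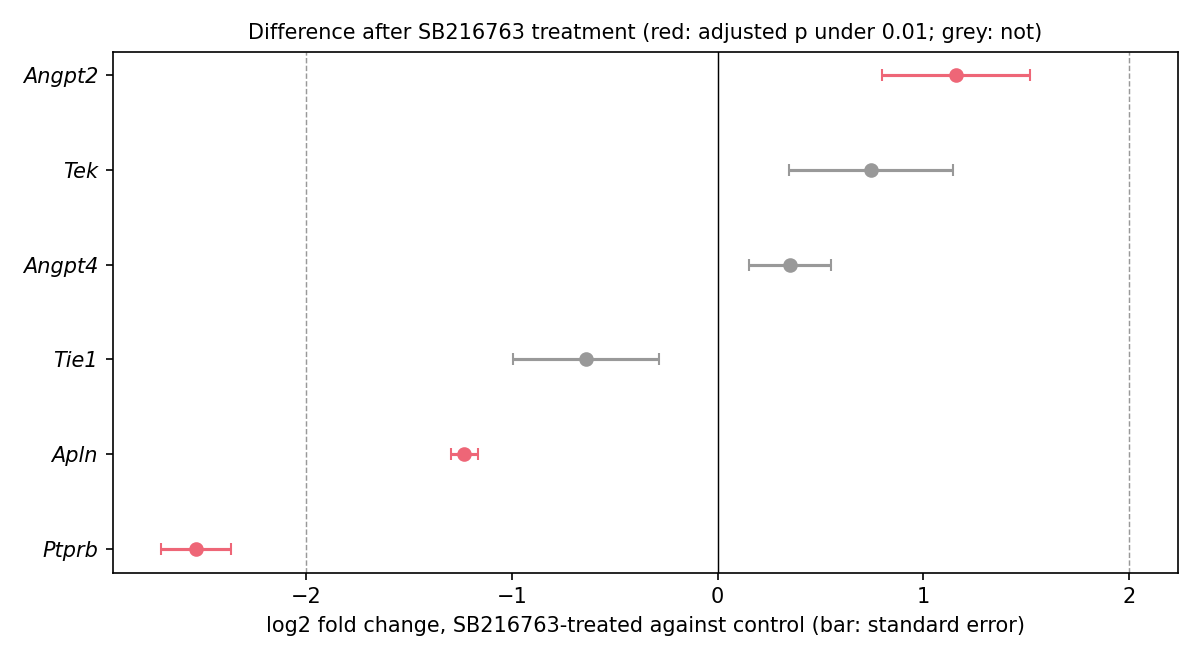
Log2 fold change between SB216763-treated and control osteoblasts for 6 members, with bars for the standard error, red for an adjusted p under 0.01, and dashed lines at the fold threshold. Ptprb lay past the threshold at -2.54, and Apln lay inside it at -1.23. Angpt1 is not drawn because its control level rests on 1 count.

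With SB216763, 4 of the 7 members tested passed an adjusted p of 0.01 in edgeR, of which Angpt1 and Angpt2 were higher and Ptprb and Apln were lower. Of all genes tested, 64.9% passed in either direction, 32.9% higher and 32% lower. With the fold threshold added, 2 of the 7 genes passed, Angpt1 upward and Ptprb downward, against 9.65% of all genes, 3.81% higher and 5.84% lower. The libraries of treated and control cells did not overlap for 4 of the 7 genes, against 73.2% of all genes. The median log2 fold change was 0.35 over the 7 genes and 0.01 over all genes tested. When the osteoblast libraries were fitted without the ECs, Angpt2, Tek, and Tie1 had too few reads to be tested. The Angpt2 call therefore depends on the EC libraries being in the fit.
Between ECs and controls, 5 of the 7 genes were higher in ECs past both thresholds, namely Angpt2, Tek, Tie1, Ptprb, and Apln, against 13.5% of all genes, and none was lower past both, against 9.87%. Of all genes 23.4% passed both thresholds in either direction. Angpt4 passed the adjusted p alone and was lower, as 37.9% of all genes were at that cutoff. At the adjusted p alone, 6 of the 7 genes passed against 76.9% of all genes, 39% being higher. The libraries did not overlap for 6 of the 7 genes, against 84% of all genes. Between ECs and treated osteoblasts the same 5 genes were higher past both thresholds, against 15% of all genes, and Angpt1 and Angpt4 were lower, against 10.3%. Together all 7 passed, against 25.3% of all genes. At the adjusted p alone the background was 78.6%, with 40.3% higher and 38.3% lower, and libraries did not overlap for 7 of the 7 genes against 85.4% of all genes. These comparisons share libraries, so their calls are not independent of one another. Angpt2, Tek, and Tie1 passed the filter on low counts only through their EC reads, and Angpt1 only through its treated reads. The calls of these genes against the other groups therefore follow in part from the filter.

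Genes that carry or receive the Tie signal were taken from a list of 25, of which 24 were tested. After treatment 14 were higher and 5 were lower at an adjusted p under 0.01 in edgeR, against 32.9% and 32% of all genes tested, and the median log2 fold change was 0.21, against 0.01 over all genes tested. Itgb3, an integrin chain of the vitronectin receptor, rose from 19.2 ± 1.01 to 114 ± 2.80 CPM, and its EC level was 277 ± 6.53 CPM. Its log2 fold change with treatment was 2.57 (SE 0.05, edgeR adjusted p = 4.17e-16), and each treated library lay between the controls and the ECs. Grb14, an adaptor that inhibits receptor tyrosine kinases, fell by 2.19 on the log2 scale, from 22.6 ± 1.86 to 4.92 ± 0.555 CPM. Foxo3, a forkhead factor restrained by AKT, had a log2 fold change of 1.46, from 116 ± 9.28 to 318 ± 3.08 CPM, and Dok1, a docking protein of tyrosine kinases, one of 1.30. Foxo1, a forkhead factor held back by Tek signaling in ECs, went from 14.3 ± 2.19 to 21.1 ± 0.546 CPM, far below the 151 ± 3.69 CPM of ECs.
Against the controls, ECs had 15 of the 24 genes higher and 6 lower, against 39% and 37.9% of all genes tested, and 7 and 4 of them passed the fold threshold as well, against 13.5% and 9.87%. Nos3, the nitric oxide synthase of endothelium, was at 455 ± 18.9 CPM in ECs, against 0.501 ± 0.0776 CPM in control and 0.416 ± 0.0981 CPM in treated osteoblasts. Esm1, a secreted proteoglycan of activated endothelium, was at 184 ± 3.67, 0.196 ± 0.0483, and 0.237 ± 0.0256 CPM in the same order. Neither passed between treated and control osteoblasts (adjusted p = 0.501 for Nos3 and 0.629 for Esm1 from edgeR). Bmx, a kinase of the Tec family, had 1560 counts in ECs, 2 in control and 1 in treated osteoblasts, a ratio of 959 between ECs and controls (exact 95% counting interval 265 to 7929). Bmx and Esm1, both among the 15 higher genes, passed the filter on low counts only through their EC reads. Their calls against osteoblasts, and the counts that include them, therefore follow in part from the filter. In the other direction stood Svep1, a matrix protein that binds Tie1. Control libraries held 94.9, 56.5, and 89.7 CPM, treated libraries 38.7, 38.4, and 48.0 CPM, and the EC mean was 0.0815 ± 0.0655 CPM. The treated libraries all lay below the controls, with a log2 fold change of -0.94 (SE 0.14, edgeR adjusted p = 2.35e-05). Grb14 had 3268 counts in the controls and 2 in ECs, a ratio of 1329 (exact 95% counting interval 367 to 10975).

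Of 12 genes around apelin, 9 were tested, and after treatment 3 were higher and 2 were lower, so that 5 of 9 passed against 64.9% of all genes tested, with a median log2 fold change of 0.17. Mme, which encodes neprilysin, a membrane peptidase that cleaves apelin among many peptides, moved most. It stood at 3167, 2993, and 2977 CPM in the treated libraries, 53.7, 44.5, and 48.3 CPM in control libraries, and 16.0, 17.0, and 16.0 CPM in those of ECs. The treated libraries stood far above both other groups, which did not overlap each other. The log2 fold change with treatment was 5.96 (SE 0.08, edgeR adjusted p = 1.24e-17), and ECs were below the treated cells by -7.54 (edgeR adjusted p = 1.34e-19). Furin, a convertase that processes the apelin precursor, rose from 130 ± 2.48 to 173 ± 4.79 CPM, toward the 251 ± 7.14 CPM of ECs. Arrb1, a β-arrestin that binds activated receptors, rose from 33.4 ± 2.64 to 46.1 ± 0.325 CPM, against 492 ± 9.71 CPM in ECs. Gnai1, a Gi protein subunit, had 771 counts in ECs, 1 in control and 4 in treated osteoblasts, and passed the filter on low counts only through its EC reads. Grk2, a kinase that desensitizes G protein–coupled receptors, was higher in ECs than in treated cells by a log2 fold change of 0.85, at 155 ± 2.47 against 86.0 ± 2.24 CPM. Hif1a, the hypoxia-inducible factor that is known to induce apelin, had a log2 fold change of -0.28, from 160 ± 13.2 to 132 ± 8.21 CPM (edgeR adjusted p = 4.92e-04).

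**Figure D4:**
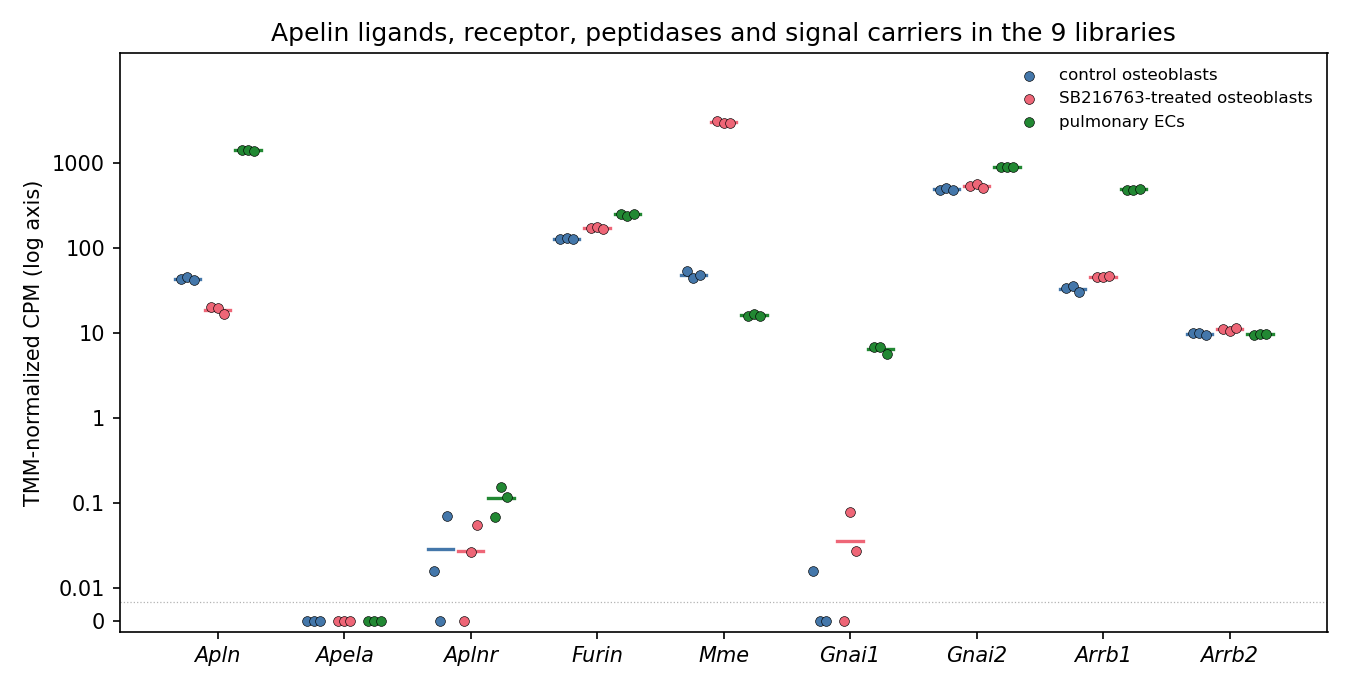
TMM-normalized CPM on a log axis for the apelin ligands, receptor, processing enzymes, and signal carriers, with 1 point per library, lines at group means of at least 0.01 CPM, and libraries without a read at 0. Mme stood near 3046 CPM in the treated osteoblasts against 48.8 CPM in the controls, and Aplnr and Apela were near or at 0 in all groups.

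Small families related to the members were counted as well. Angiopoietin-like proteins are related to angiopoietins but do not bind Tek. Of 7 such genes 4 were tested, and after treatment 1 was higher and 2 were lower, against 32.9% and 32% of all genes tested. The median log2 fold change was -0.81. It includes Angptl8, whose log2 fold change of -1.61 rested on 5 control counts and 1 treated count (edgeR adjusted p = 0.209). Angptl4, an inhibitor of lipoprotein lipase, had a log2 fold change of 4.15, from 0.0392 ± 0.0342 to 0.894 ± 0.193 CPM, against 7.15 ± 0.739 CPM in ECs. Angptl2, a secreted factor of mesenchymal cells, was at 167 ± 2.30 CPM in the controls and 123 ± 5.35 CPM after treatment, and at 0.778 ± 0.0137 CPM in ECs. Angptl6 fell from 2.67 ± 0.561 to 1.21 ± 0.206 CPM. Among 4 receptor phosphatases of the same class as Ptprb, Ptprj alone was tested. Ptprj, which dephosphorylates several receptor kinases, had 41.0, 43.6, and 41.6 CPM in the treated libraries, 7.15, 7.26, and 8.02 CPM in control libraries, and 24.5, 25.9, and 25.5 CPM in those of ECs. It was therefore highest in the treated cells, opposite to Ptprb, and 5.67-fold above the controls (edgeR adjusted p = 2.70e-15). Ptprh, Ptpro, and Ptprq had at most 4 counts in any group.

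The genes with the pattern most like each member were sought over the 9 libraries, by the root mean square distance of log2 CPM centered for each gene. For Ptprb they were Adgrf5, Edn1, and Stab1, at distances of 0.22, 0.36, and 0.48. Adgrf5, an adhesion receptor of endothelium, moved from 4.20 to 0.764 CPM with treatment, against 1061 CPM in ECs. Edn1, the endothelin-1 gene, moved from 1.14 to 0.165 CPM, with 451 CPM in ECs. For Apln the nearest were Gm10020, Sox13, and Raet1d, at 0.18, 0.18, and 0.19. Sox13, a SOX factor, was at 4.91, 1.66, and 142 CPM in controls, treated cells, and ECs. For Angpt1 they were Cd163, Tgm5, and Plag1, at 0.29, 0.29, and 0.32, with Plag1, a zinc finger factor, at 0.984, 22.6, and 1.10 CPM. The genes nearest to Tek were Ppp1r16b, Rgs2, and Gimap5, and those nearest to Tie1 were Pcdh7, Col13a1, and Igfbp3. Odf3b, Gng11, and Parvb were nearest to Angpt2. Nearest to Angpt4 were 5330438D12Rik, Zfp40, and Lrrc1, at 0.10, 0.13, and 0.15. The distances were not scaled to the size of a gene's differences between groups, which were small for Angpt4, so they cannot be ranked between members. These distances mostly follow the group means of 3 groups and are a description.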

How the data were processed

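Per gene, the authors deposited whole-number counts of aligned RNA-Seq reads, made with STAR and not normalized, for 9 libraries. The submitters' processing notes name STAR 2.5.3a and GRCm38. The annotation and strand setting are not given in the sources used here. Groups were taken from the sample titles. Symbols were matched for 50376 of 50686 identifiers, and coordinates and exon lengths come from GENCODE M21.

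In R 4.3.3, edgeR 4.0.16 kept genes by filterByExpr, normalized by TMM, and fitted a quasi-likelihood model to all 9 libraries. P-values were adjusted over 15531 genes. The study's cutoffs were a log2 fold change of 2 in either direction with an FDR under 0.01, and fold changes used a prior count of 0.125. The fit was tested on simulated data for control and treated osteoblasts, with large changes placed only in genes above low counts. That test does not cover genes with few counts. The alternatives included limma-voom (limma 3.58.1), DESeq2 1.42.0, other scalings and filters, and a replicate block.

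Named genes were the members, up to 4 genes per list and comparison with the largest change past the FDR and at 1 CPM or more, and the 3 nearest patterns per member among genes at 1 CPM or more. Foxo1, Apela, Angptl8, Ptprh, Ptpro, Ptprq, Mcph1, and marker genes were named after their values were seen. Members and lists were chosen with earlier results of these data known. A gene of the apelin list is not reported here.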

Additional observations from a re-analysis of the deposited data

How the results depend on the processing

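The number of members past both thresholds between SB216763-treated and control osteoblasts was 2, and 4 with a log2 fold threshold of 1 or with the FDR alone. Over all genes these settings gave 3741 and 10083 genes in place of 1499 for this comparison, 6011 and 11948 in place of 3635 for ECs against controls, and 6586 and 12207 in place of 3933 for ECs against treated cells. Leaving out each library in turn kept 2 members for the first comparison and 5 for the second, and gave between 6 and 7 for the third. Angpt4 decided the latter, with a log2 fold change between treated osteoblasts and ECs of -1.90 without SB216763 replicate 3 and -1.97 in limma-voom. Scaling by library size alone moved the median of all genes by 0.20 between treated and control osteoblasts, and the directions of the members tested were kept under each scaling. Same-numbered libraries were not found to be pairs, with correlations of their deviations from -0.0392 to 0.123, of which 1 of 9 was over 0.1. The fit with the replicate block called 2, 5, and 7 members, as without it, and 1482, 3634, and 3936 genes. Tek, Tie1, Aplnr, and Angpt2 had few counts in osteoblasts, so that small changes there would be missed, and Aplnr has no value except without the filter.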
